A study of Homo sapiens with 18 samples.

Results

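The tumour suppressor p53 raises the transcription of a set of genes that stop the cell cycle, repair DNA and act back on p53 itself, and 36 such genes were followed here by name in RNA sequencing of 2 prostate cancer cell lines. The genes were chosen by symbol, with no threshold on their values, but with earlier results of these data known. The shares of them that rose or fell therefore describe this set and do not test it. All 36 are among the 20967 gene symbols of the 22RV1 tables, and 35 are among the 15093 of the PC3 table, so SPATA18 was not analysed here in PC3. In 22RV1 cells the 4 groups were canagliflozin at 10 µM with 5 Gy of radiation (CANA + RT), 5 Gy of radiation (RT), canagliflozin at 10 µM (CANA) and DMSO alone (control). PC3 cells had CANA at 10 µM or DMSO alone (control) and were not irradiated. Each group held 3 libraries, labelled A, B and C, made 24 h after treatment. PC3 is a line from metastatic castrate-resistant disease that lacks working p53, and 22RV1 is a castrate-resistant line. Each is a single established line, so the comparisons describe these lines in one culture condition. Nothing in the labels says that the 3 libraries of a group came from separate cultures, so p-values measure only the spread between these libraries.

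In unstressed cells p53 is held low by MDM2, a ubiquitin ligase that marks it for degradation, and MDM2 is itself a p53 target, which closes a feedback loop. After ionising radiation, the kinases ATM and CHK2 phosphorylate p53 and free it from MDM2, and p53 then binds paired half-sites in DNA as a tetramer. CDKN1A encodes p21, an inhibitor of cyclin-dependent kinases, and through p21 the DREAM repressor complex silences cell cycle genes. Canagliflozin is an inhibitor of the glucose transporter SGLT2 that is used in diabetes.

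The recovered read totals of the PC3 libraries ranged from 15807924 to 28327063, and the depth of the 22RV1 libraries is unknown because only rlog values are given. An rlog value is a log2 level whose differences are shrunk towards 0, the more so the fewer reads a gene has. CANA replicate B of PC3 stood apart from the other 5 libraries, with a first principal component score of 50.5 against -17.4 to -1.58. It also had higher values for short transcripts, with a median log2 difference from control of 0.84 over 941 genes with transcripts under 1000 bases, while the medians in CANA replicates A and C were 0.16 and 0.17. In 22RV1 the first component held 83.4% of the variance and separated the 6 irradiated libraries from the 6 others. Marker genes were counted at a mean of at least 10 normalized reads in PC3 control cells. In 22RV1 control cells, where reads are unknown, the mean rlog had to reach log2(10). Of 9 genes that mark 22RV1, all 9 reached this level in 22RV1 and 6 in PC3. Of 9 genes that mark PC3, 8 reached it in PC3 and 4 in 22RV1. Of 8 fibroblast markers, 4 reached it in PC3 and 5 in 22RV1. The mesenchymal gene VIM, the highest of the PC3 markers in PC3, had 36573 normalized reads there. Its mean in 22RV1 was an rlog of 5.58, which is a log2 value.

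Sequences close to the p53 response element were found within 2500 bases of the transcript start of 9 of the 36 genes, a share of 25.0%, against 452 of 20020 protein-coding genes, a share of 2.26%. Because the 36 genes were listed as p53 targets, a higher share could be foreseen, and it describes this set without testing it. The element consists of 2 half-sites of 10 bases, and the search asked for both half-sites side by side, with both 4-base cores intact and at most 2 other mismatches. The 10 matches are printed because they show the kind of DNA that p53 recognises beside genes whose values follow, written on the strand that reads with the gene, with the 2 cores in capitals. The genes PLK2, ZMAT3 and CMBL lie on the minus strand and the other 6 on the plus strand, and mismatches are those outside the cores. Positions are on GRCh38 (hg38), and the starts are those of the canonical transcripts of GENCODE 44.

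PLK2, chr5:58462274-58462293, 0 mismatches: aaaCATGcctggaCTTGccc
ZMAT3, chr3:179070188-179070207, 0 mismatches: aaaCAAGtccagaCATGcct
GADD45A, chr1:67686775-67686794, 1 mismatch: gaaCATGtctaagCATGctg
CCNG1, chr5:163437926-163437945, 1 mismatch: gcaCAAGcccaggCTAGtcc
CCNG1, chr5:163439946-163439965, 2 mismatches: gacCTAGtcaagaCTTGctt
CDKN1A, chr6:36676449-36676468, 2 mismatches: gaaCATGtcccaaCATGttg
BTG2, chr1:203303642-203303661, 2 mismatches: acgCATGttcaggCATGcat
AEN, chr15:88621306-88621325, 2 mismatches: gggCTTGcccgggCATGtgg
CMBL, chr5:10307584-10307603, 2 mismatches: acaCAAGcccacaCAAGccc
SPATA18, chr4:52051957-52051976, 2 mismatches: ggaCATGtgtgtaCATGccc

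Relative to the canonical transcript, 4 of these matches lie before the start, in AEN, BTG2, CDKN1A and PLK2, and 6 lie in an intron. The centre of the CDKN1A match lies 2256 bases before this start and that of the PLK2 match 2198 bases before it, while the centre of the AEN match lies 24 bases before it. The annotated CDKN1A gene begins earlier than its canonical transcript, at chr6 position 36676460, so its match overlaps the first bases of the gene. With at most 1 mismatch, 4 of the 36 genes had a match (11.1%), against 0.400% of protein-coding genes. A match describes the letters only, and binding of p53 was not measured.

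**Figure D1:**
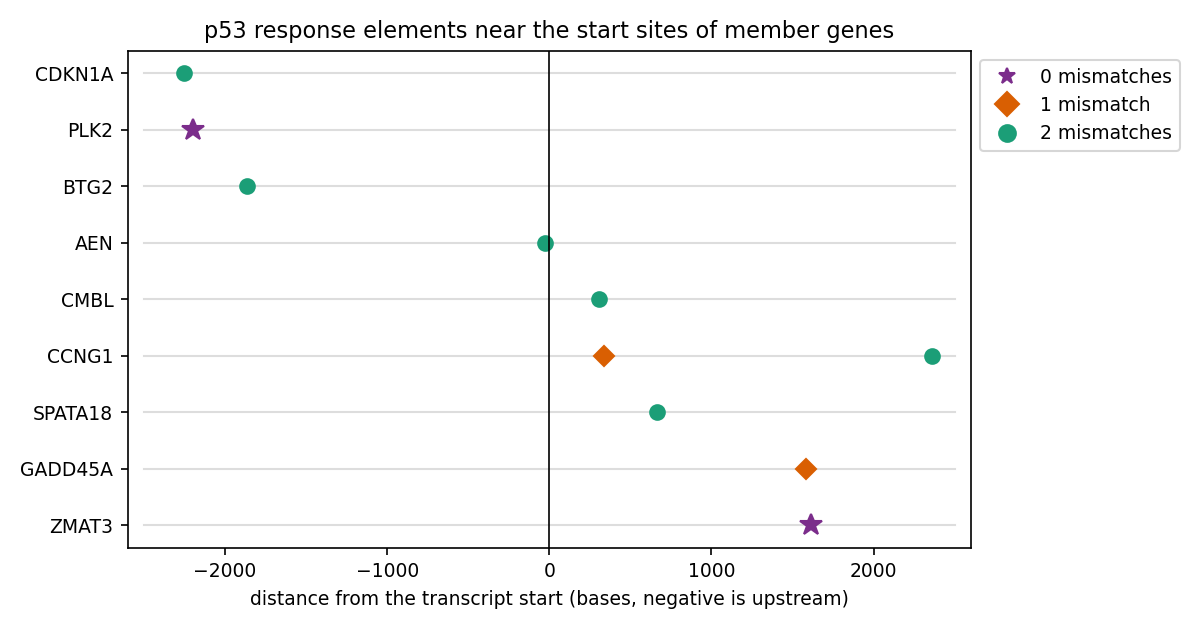
Distance in bases of the centres of the 10 matches to the p53 response element from the transcript start of the 9 genes that have one, with negative values upstream. Symbols show the number of mismatches outside the cores, and PLK2 and ZMAT3 have 0.

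CDKN1A, MDM2 and BTG2 ranked higher in 22RV1 control cells than in PC3 control cells, and PLK2 and PHLDA3 ranked lower. Levels were taken per kilobase, from normalized reads in PC3 and from the rlog mean turned back from log2 in 22RV1. They were turned to percentiles among 14318 genes found in both tables, because the tables were normalized separately. Since rlog shrinks differences between libraries, the 22RV1 control levels of genes that rose after radiation may be overstated, which was not tested. Of 35 genes, 25 ranked higher in 22RV1 than in PC3 and 10 ranked lower, and 54.5% of all ranked genes were higher in 22RV1. The median percentile was 59.1 in 22RV1 and 55.3 in PC3. CDKN1A stood at percentile 97.3 in 22RV1 and 72.7 in PC3, MDM2 at 78.5 in 22RV1 and 49.1 in PC3, and BTG2, an antiproliferative cofactor of mRNA deadenylation, at 66.0 in 22RV1 and 20.1 in PC3. The order was the other way for PLK2, a polo-like kinase, at 32.9 in 22RV1 and 76.5 in PC3, for the quinone oxidoreductase gene TP53I3 at 25.0 in 22RV1 and 60.0 in PC3, for DRAM1 at 31.1 in 22RV1 and 58.7 in PC3, and for PHLDA3 at 59.1 in 22RV1 and 84.9 in PC3. These ranks are a description without a test, since line and experiment cannot be told apart, and that of RPS27L is unreliable because its canonical transcript is much longer than the usual message.

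**Figure D2:**
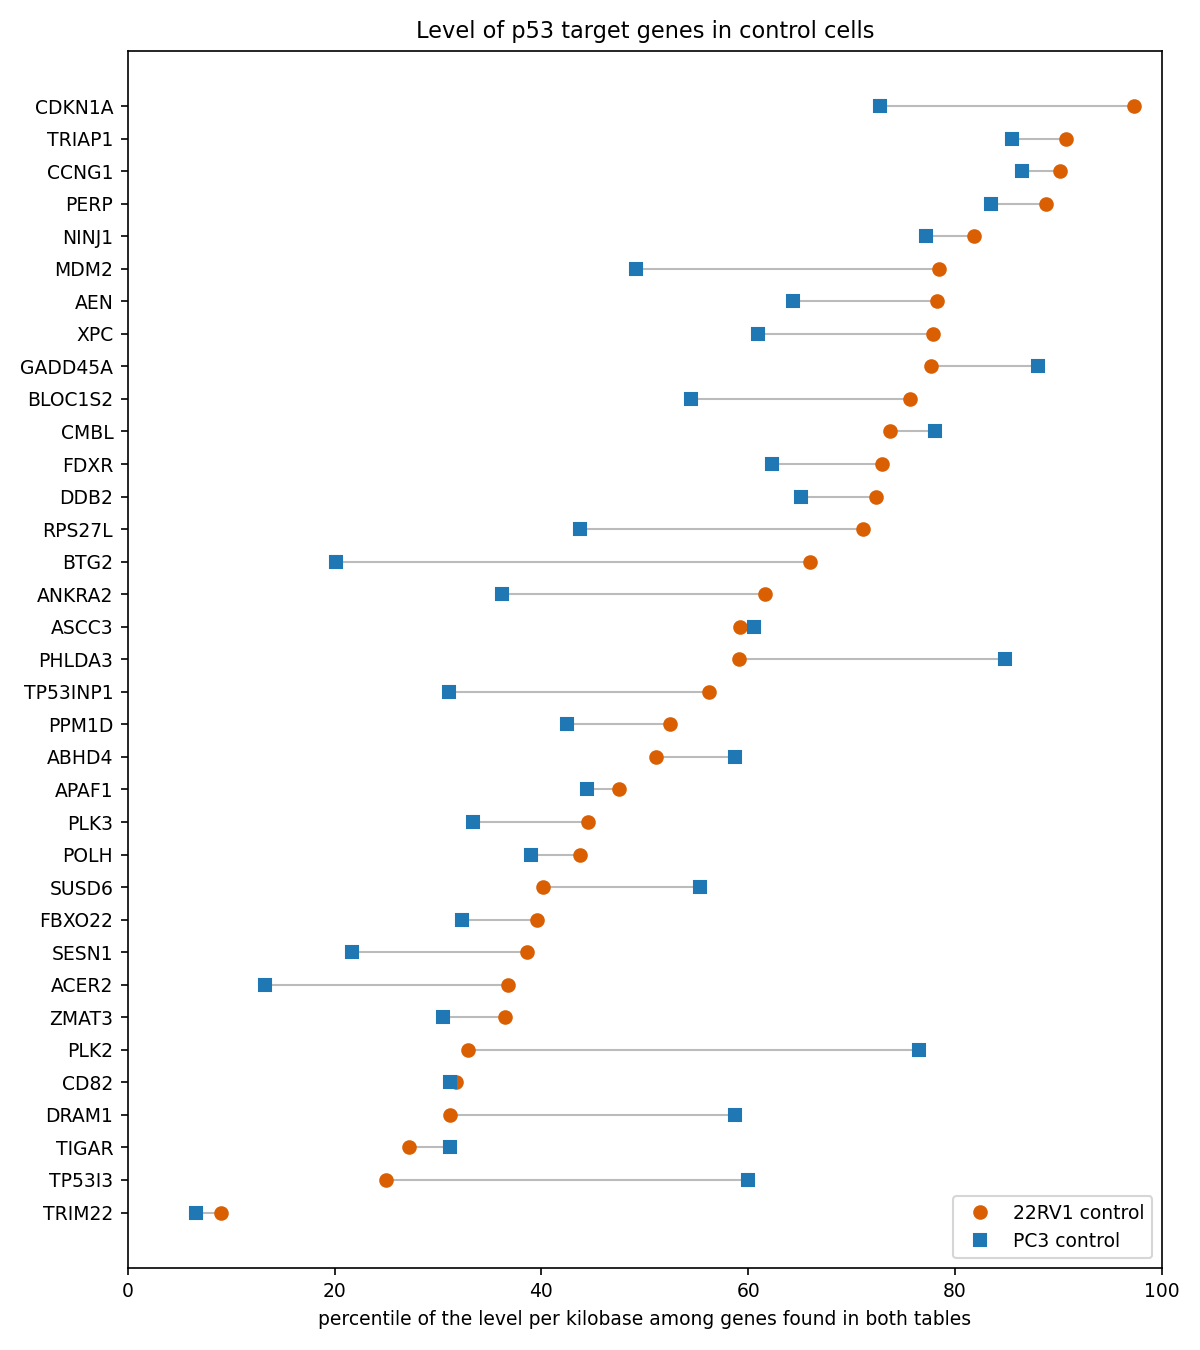
Percentile of the level per kilobase in control cells for 35 of the 36 genes, among 14318 genes found in both tables. Circles are 22RV1 control cells and squares PC3 control cells, each a mean of 3 libraries, and BTG2 and PLK2 lie furthest apart, in opposite directions.

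Most of these genes rose after radiation. Of the 36 genes in 22RV1, 33 rose in RT cells compared with control cells, 1 fell and 2 did not pass the test (limma on rlog, Benjamini-Hochberg adjusted p under 0.05 over 14563 genes). Over all genes tested, 28.4% rose and 29.4% fell. The median log2 difference was 0.53 over the 36 genes and -0.0023 over all genes. In 34 of the 36 the 3 RT libraries all lay above the 3 control libraries, against 30.0% of all genes, and in 1 of the 36 they all lay below, against 31.0%. Each value is a mean over the cells of a culture, so more responding cells and more RNA per cell cannot be told apart.

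The 7 genes that act on the cell cycle and growth signals all rose after radiation, with a median log2 difference of 1.06. CDKN1A had rlog values of 13.78, 13.81 and 13.88 in RT replicates A, B and C, against 12.73, 12.83 and 12.71 in control replicates A, B and C. All RT libraries of CDKN1A were thus about 1 log2 unit above control, and the difference was 1.06 ± 0.034 (SE, limma, adjusted p = 4.6e-19). PHLDA3, a competitor of AKT for membrane lipids, and DRAM1 had the largest differences of the 36 genes. The PHLDA3 rlog values were 10.77, 10.65 and 10.74 in RT cells and 9.26, 9.32 and 9.25 in control cells, a difference of 1.44 ± 0.039 (limma, adjusted p = 2.14e-20). BTG2 read 10.77, 10.82 and 10.91 in RT cells and 9.70, 9.75 and 9.62 in control cells, and its difference was 1.14 ± 0.038 (limma, adjusted p = 9.02e-19). SESN1, a sestrin that restrains mTORC1, read 10.01, 10.04 and 10.13 in RT cells and 8.95, 8.89 and 8.99 in control cells, with a difference of 1.12 ± 0.041 (limma, adjusted p = 8.58e-18). The RT and control libraries did not overlap for any of these 4 genes, and the gap between the groups was many times the spread within them. Smaller rises were seen for PLK3, a stress-responsive polo-like kinase (0.83), PLK2 (0.43) and GADD45A, a growth arrest and repair factor (0.34). PLK2 and GADD45A were thus the least changed of the 7, and both are among the genes whose printed match has at most 1 mismatch.

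The 6 genes that act back on p53 rose as well, between 0.50 and 1.28 on the log2 scale. TP53INP1, a nuclear partner of p53 that also takes part in autophagy, read 11.34, 11.44 and 11.44 in RT cells and 10.06, 10.14 and 10.19 in control cells, a difference of 1.28 ± 0.036 (limma, adjusted p = 3.06e-20). ZMAT3, an RNA-binding regulator of splicing, read 10.36, 10.36 and 10.44 in RT cells and 9.43, 9.39 and 9.46 in control cells (0.96). CCNG1, a cyclin that recruits a phosphatase to MDM2, read 12.30, 12.30 and 12.35 in RT cells and 11.52, 11.29 and 11.46 in control cells (0.89). MDM2 differed by 0.62 ± 0.032, less than CDKN1A, with 12.59, 12.61 and 12.55 in RT cells and 11.96, 11.95 and 11.98 in control cells. PPM1D, the phosphatase WIP1 that switches p53 signalling off, differed by 0.70, and FBXO22, a ubiquitin ligase adaptor, by 0.50, with 10.43, 10.42 and 10.47 in RT cells and 9.95, 9.93 and 9.95 in control cells.

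All 5 genes placed under DNA repair and damage bypass rose, with a median of 0.59, and RPS27L is counted among them. DDB2, which finds ultraviolet damage for nucleotide excision repair, read 10.65, 10.66 and 10.69 in RT cells and 9.50, 9.49 and 9.50 in control cells, a difference of 1.17 ± 0.030 (limma, adjusted p = 4.56e-21). RPS27L, a ribosomal protein paralog that binds MDM2, read 11.99, 11.97 and 11.95 in RT cells and 11.26, 11.06 and 11.16 in control cells (0.81), and how reads were placed between it and RPS27 was not tested. The damage sensor XPC differed by 0.59, the helicase subunit ASCC3 by 0.52 and the bypass polymerase POLH by 0.46.

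Among the 6 genes of metabolism and redox balance, 5 rose and ABHD4 did not pass the test. FDXR, the mitochondrial ferredoxin reductase, read 10.90, 10.90 and 10.95 in RT cells and 9.56, 9.63 and 9.50 in control cells, a difference of 1.35 ± 0.034 with the smallest p of the 36 genes (limma, adjusted p = 3.27e-21). The others rose less, with CMBL, a hydrolase, at 0.52, TP53I3 at 0.28, the ceramidase gene ACER2 at 0.25 and TIGAR, which lowers glycolytic flux, at 0.18. The lipase gene ABHD4 differed by -0.042 (95% interval -0.13 to 0.051, limma, adjusted p = 0.446).

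Of the 7 genes of cell death, autophagy and mitochondria, 6 rose. DRAM1, a lysosomal membrane protein of autophagy, read 8.90, 8.86 and 8.99 in RT cells and 7.44, 7.45 and 7.53 in control cells, a difference of 1.44 ± 0.045 (limma, adjusted p = 2.44e-19). SPATA18, which eliminates damaged mitochondria, differed by 0.87, the exonuclease gene AEN by 0.53, the mitochondrial lipid transfer gene TRIAP1 by 0.41, SUSD6 by 0.33 and APAF1, the scaffold of the apoptosome, by 0.14. PERP, a desmosomal protein, differed by 0.057 and did not pass the test (95% interval 0.0024 to 0.11, limma, adjusted p = 0.0691).

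The 5 remaining genes split, with 4 higher and 1 lower. NINJ1, which mediates plasma membrane rupture, differed by 0.60, ANKRA2 by 0.39, the lysosome positioning gene BLOC1S2 by 0.19 and TRIM22, an antiviral ubiquitin ligase with a mean rlog close to the minimum of 3, by 0.13, a call that was lost without RT replicate C or without control replicate A. CD82, a tetraspanin that suppresses metastasis, was the gene that fell. It read 6.85, 6.76 and 6.83 in RT cells and 6.92, 7.05 and 6.92 in control cells, a difference of -0.15 ± 0.048 (limma, adjusted p = 0.0101), and its call was lost without RT replicate B or without control replicate B.

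**Figure D3:**
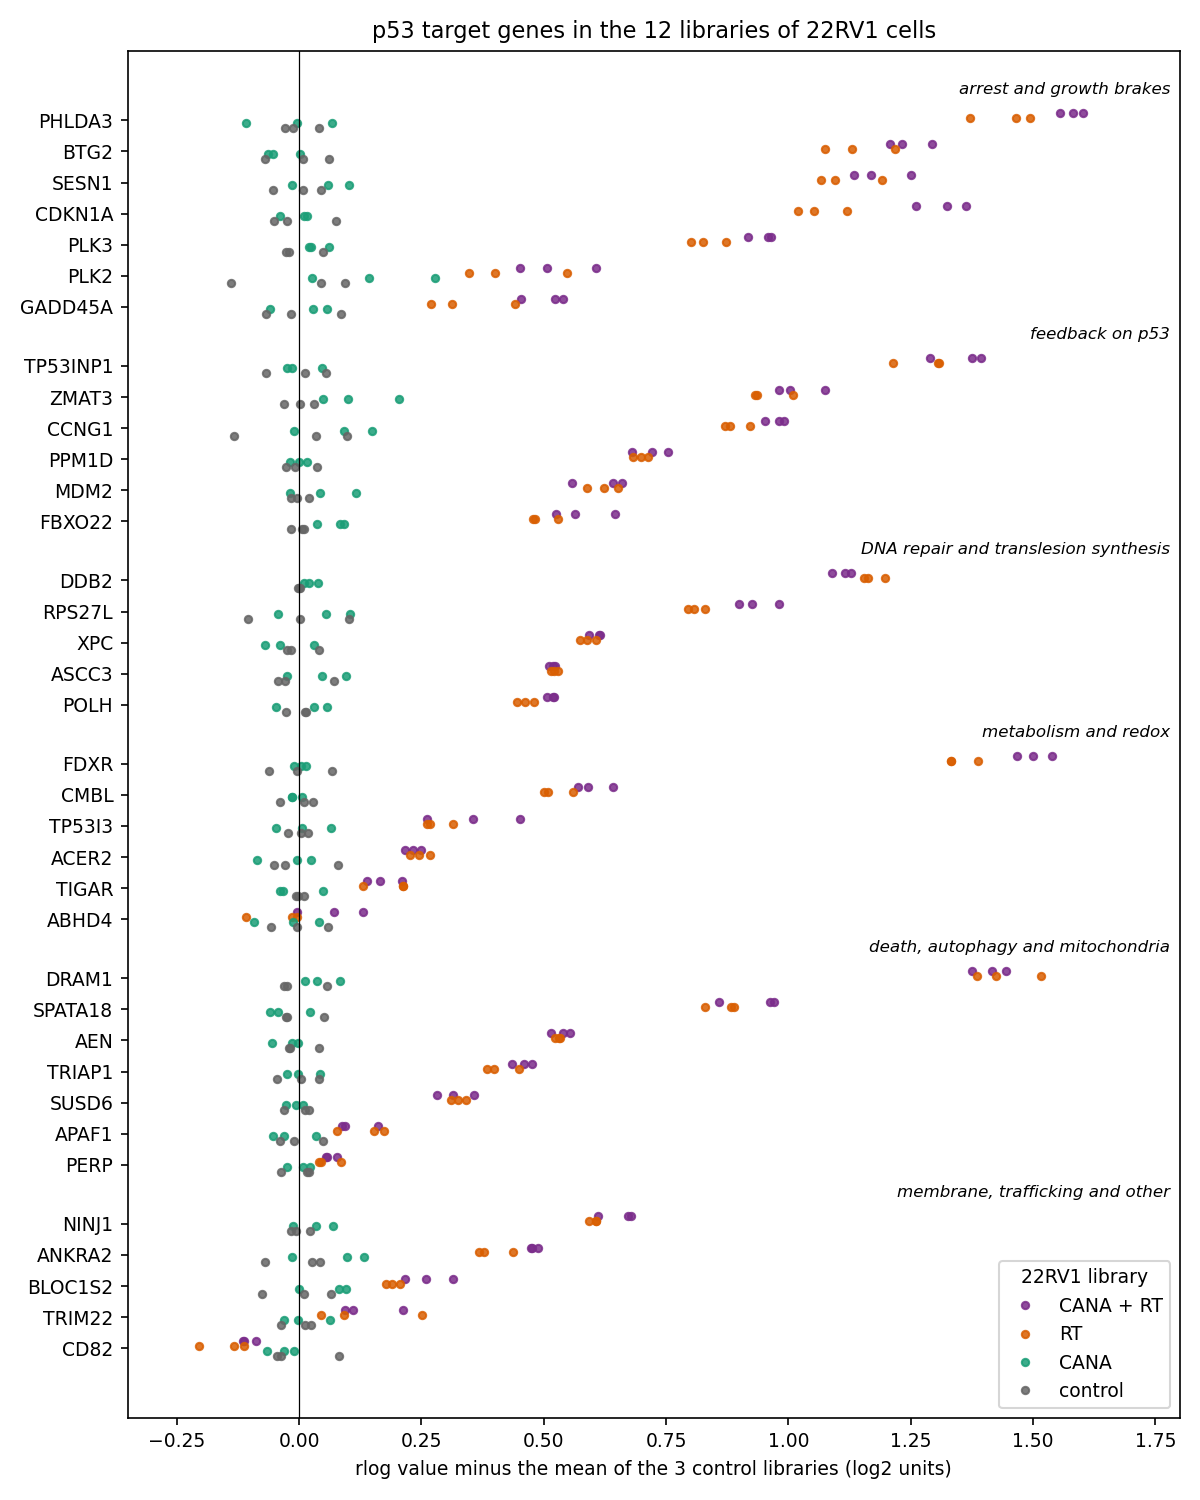
rlog values of the 36 genes in the 12 libraries of 22RV1 cells, as the difference from the mean of the 3 control libraries in log2 units, grouped by role and ordered by the RT difference. The CANA + RT and RT libraries lie together on the right for most genes, up to 1.58 and 1.44 on average for PHLDA3, while the CANA libraries lie around 0.

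The 9 genes with a match near the start all rose after radiation, with a median log2 difference of 0.87 and a range of 0.34 to 1.14. Among the 27 without a match, 24 rose and 1 fell, with a median of 0.50. The search passes over elements with a spacer, with a broken core or further from the start. A gene without a match may therefore still have an element. Of the other genes in the test that have such a match, 276 in all, 37.0% rose and 23.9% fell, with a median of 0.046. The genes without a match include PHLDA3, DRAM1, FDXR, TP53INP1, DDB2 and SESN1, 6 of the 8 with the largest differences.

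Canagliflozin added to radiation was compared with radiation alone to ask whether the drug alters the response of irradiated cells. Of the 36 genes, 3 rose in CANA + RT cells compared with RT cells, none fell and 33 did not pass the test (limma, over 14563 genes). Over all genes, 1.4% rose and 1.17% fell. The median log2 difference was 0.062 over the 36 genes and -0.0023 over all genes. At an unadjusted p under 0.05 the count was 12 of 36, all of them higher, where 8.62% of all genes were higher. The difference was above 0 for 28 of the 36 genes and for 48.3% of all genes.

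CDKN1A changed most. It read 14.02, 14.08 and 14.12 in CANA + RT replicates A, B and C, against the 13.78, 13.81 and 13.88 of RT cells. Every CANA + RT library lay above every RT library, by a mean of 0.25 ± 0.034 (limma, adjusted p = 0.000203), and the call held without any one of the 6 libraries. FDXR read 11.03, 11.06 and 11.10 in CANA + RT cells, against 10.90, 10.90 and 10.95 in RT cells, a difference of 0.15 ± 0.034 (limma, adjusted p = 0.0142). GADD45A read 9.89, 9.96 and 9.98 in CANA + RT cells, against 9.75, 9.71 and 9.88 in RT cells, a difference of 0.16 ± 0.044 (limma, adjusted p = 0.0449). The libraries of both genes stood apart by group, but the distance between the closest libraries was small. The call of FDXR was lost without CANA + RT replicate B or C or without RT replicate A or B, with adjusted p up to 0.114. That of GADD45A was lost whichever of the 6 libraries was left out, except RT replicate C, with adjusted p up to 0.245. Without the filter on low values or without the trend, CDKN1A was the 1 gene of the 36 that passed. In a fit of only these groups 8 of the 36 passed, all higher. In that fit 668 of 14563 genes were higher and 520 lower, against 204 and 170 in the main fit.

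The next genes by p did not pass the test, although their libraries were also apart. PHLDA3 read 10.86, 10.83 and 10.88 in CANA + RT cells, against 10.77, 10.65 and 10.74 in RT cells (0.14 ± 0.039, limma, adjusted p = 0.0568). RPS27L read 12.09, 12.06 and 12.14 in CANA + RT cells, against 11.99, 11.97 and 11.95 in RT cells (0.13 ± 0.040, limma, adjusted p = 0.0858). PLK3 read 9.08, 9.04 and 9.09 in CANA + RT cells, against 8.95, 8.93 and 9.00 in RT cells (0.11 ± 0.040, limma, adjusted p = 0.123). In these 3 genes the lowest CANA + RT library was above the highest RT library. In all, the CANA + RT libraries lay above the RT libraries for 12 of the 36 genes and below them for 1, DDB2, where 12.2% of all genes were above and 12.6% below.

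**Figure D4:**
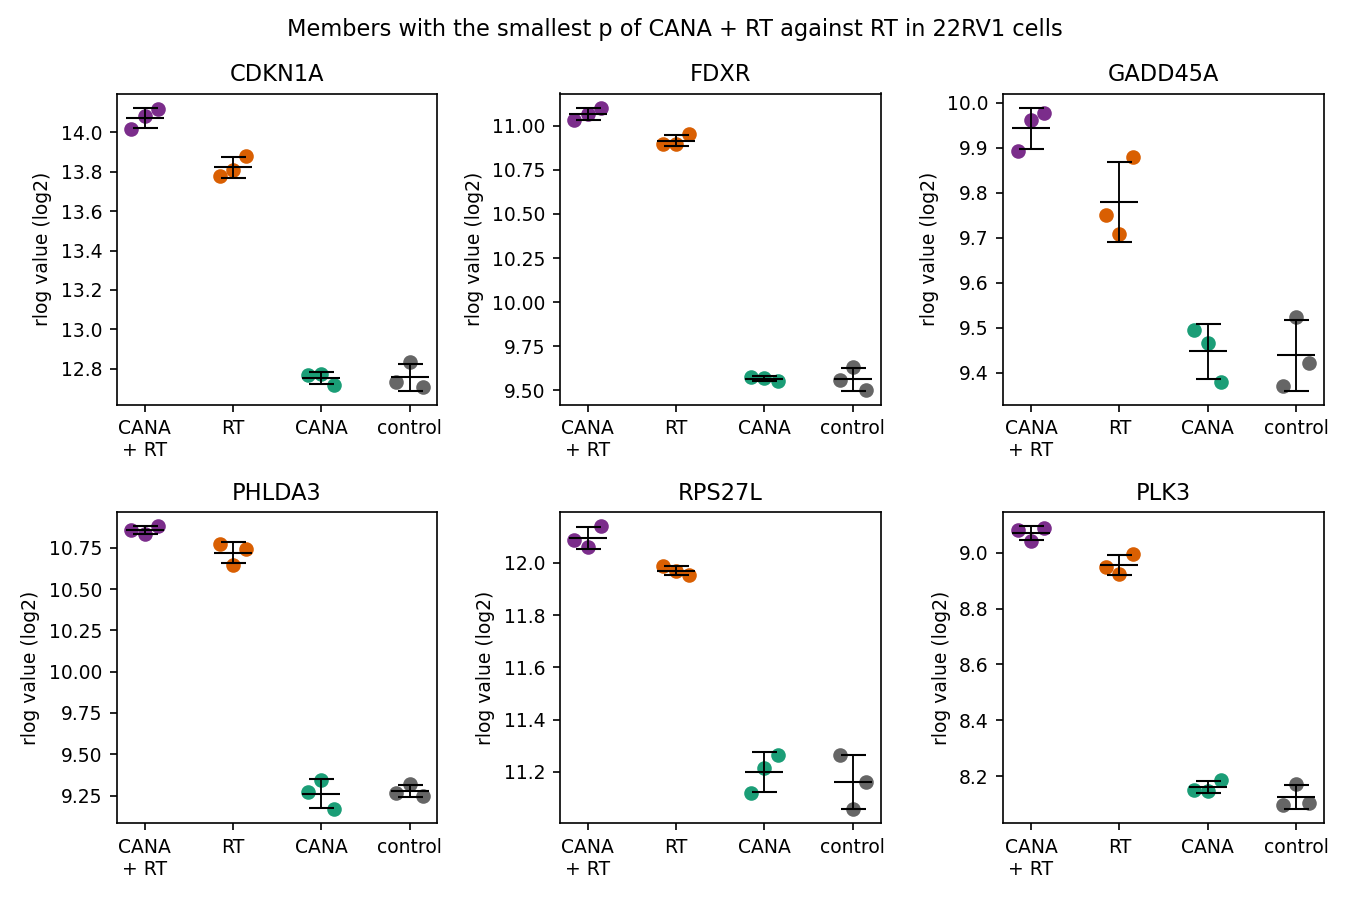
rlog values in CANA + RT, RT, CANA and control libraries of 22RV1 cells for the 6 genes with the smallest p of CANA + RT against RT. Points are replicates A, B and C from left to right, and bars are the mean and SD, n = 3. In each panel the CANA + RT points lie above the RT points, and the CANA and control points overlap.

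None of the 6 feedback genes passed the test between CANA + RT and RT cells. Their median log2 difference was 0.069, against 0.062 over all 36 genes, and MDM2 and PPM1D were closest to 0. MDM2 read 12.60, 12.62 and 12.52 in CANA + RT cells, against 12.59, 12.61 and 12.55 in RT cells, a difference of -0.0017 with a 95% interval of -0.068 to 0.065. For PPM1D the difference was 0.020 (-0.045 to 0.085), which leaves out any change as large as that of CDKN1A. CCNG1 read 12.41, 12.38 and 12.42 in CANA + RT cells, a difference from RT of 0.084, with its libraries apart from those of RT. ZMAT3 read 10.41, 10.50 and 10.43 in CANA + RT cells (0.060). FBXO22 read 10.47, 10.51 and 10.59 in CANA + RT cells (0.082). TP53INP1 read 11.42, 11.51 and 11.53 in CANA + RT cells (0.077). None of these 4 passed the test (limma, adjusted p between 0.186 and 0.441), although CCNG1 passed in the fit of only these groups. DDB2 read 10.62, 10.59 and 10.61 in CANA + RT cells, against 10.65, 10.66 and 10.69 in RT cells (-0.061, limma, adjusted p = 0.294). BTG2 read 10.90, 10.93 and 10.99 in CANA + RT cells, a difference from RT of 0.10. SESN1 read 10.11, 10.08 and 10.19 in CANA + RT cells (0.067) and DRAM1 read 8.89, 8.85 and 8.92 (-0.030). The libraries of these 3 genes overlapped those of RT cells. The remaining 20 genes had differences between -0.021 and 0.11.

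The interaction asks whether the difference that CANA made in irradiated cells departs from that in unirradiated cells. CDKN1A was the 1 gene of the 36 that passed this test, where 0.103% of all genes did (15 of 14563), and 0.0549% passed with a positive interaction. Its interaction was 0.26 ± 0.048 (limma, adjusted p = 0.0293), since CDKN1A differed by 0.25 between CANA + RT and RT cells and by -0.0043 between CANA and control cells. Its adjusted p ranged from 0.00663 to 0.140 when 1 of the 12 libraries was left out, and the call held in 5 of these 12 fits, those without CANA + RT replicate A, RT replicate C, CANA replicate A, control replicate B or control replicate C. It was lost without the filter on low values and without the trend, where the adjusted p reached 0.210. FDXR (0.15, limma, adjusted p = 0.254), PHLDA3 (0.15, adjusted p = 0.340) and BTG2 (0.14, adjusted p = 0.359) came next and did not pass. In CANA cells FDXR read 9.58, 9.57 and 9.55. PHLDA3 read 9.27, 9.34 and 9.17 and BTG2 9.63, 9.64 and 9.69 in CANA cells, and the CANA libraries of all 3 genes overlapped the control libraries.

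Canagliflozin alone left the 36 genes close to control in 22RV1. None of the 36 passed the test, and none of 14563 genes did (0.0%, limma). At an unadjusted p under 0.05 there were 3 of 36 genes, all higher, and 421 of all genes (2.89%), of which the higher ones made up 1.65% of all genes. The CANA libraries lay above the control libraries for 3 of the 36 genes, against 2.79% of all genes, and below them for none, against 3.56%. CDKN1A read 12.77, 12.77 and 12.72 in CANA cells, against 12.73, 12.83 and 12.71 in control cells, with a 95% interval of the difference of -0.075 to 0.066. The 4 genes with the smallest p were ZMAT3, PLK2, FBXO22 and CCNG1. ZMAT3 read 9.48, 9.53 and 9.63 in CANA cells, against 9.43, 9.39 and 9.46 in control cells (0.12 ± 0.038, unadjusted p = 0.00468, limma, adjusted p = 0.997). PLK2 read 7.55, 7.43 and 7.68 in CANA cells, against 7.26, 7.50 and 7.45 in control cells (0.15 ± 0.065), and its groups overlapped. FBXO22 read 9.98, 10.04 and 10.03 in CANA cells, against 9.95, 9.93 and 9.95 in control cells (0.070 ± 0.033). CCNG1 read 11.41, 11.52 and 11.57 in CANA cells, against 11.52, 11.29 and 11.46 in control cells (0.077 ± 0.042), with control replicate B below all other libraries. The largest absolute difference of the 36 was thus 0.15, that of PLK2.

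Against control, CANA + RT cells had 34 of the 36 genes higher and none lower (limma), where 28.4% of all genes were higher and 29.2% lower. The median log2 difference was 0.59. This comparison shares its libraries with those above. PHLDA3 differed by 1.58 ± 0.039, FDXR by 1.50 ± 0.034, DRAM1 by 1.41 ± 0.045, TP53INP1 by 1.35 ± 0.036 and CDKN1A by 1.32 ± 0.034. PERP was higher here (0.063 ± 0.027, limma, adjusted p = 0.0449), a call that was lost without any 1 of the CANA + RT libraries or without control replicate B. CD82 read 6.85, 6.88 and 6.85 and did not pass (-0.11 ± 0.048, limma, adjusted p = 0.0647). ABHD4 differed by 0.066 (limma, adjusted p = 0.215).

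In PC3 cells, which lack working p53, CANA was compared with control without radiation. Of the 35 genes tested none passed, and none of 13449 genes did (0.0%, limma on log2(value + 1)). At an unadjusted p under 0.05 there were 8 of 35 genes and 2485 of all genes (18.5%). The median log2 difference was 0.036 over the 35 genes, and -0.010 over all genes, and it was above 0 for 20 of the 35 genes and 48.6% of all genes. The CANA libraries lay above the control libraries for 9 of the 35 genes and below them for 3, against 17.7% of all genes in either case. On recovered reads edgeR called none of the 35 genes and none of all genes, and DESeq2 called 3 of the 35 (CCNG1, PHLDA3 and RPS27L, all higher) and 347 of all genes. Without CANA replicate B, which stood apart, 4 genes were higher and 2 lower, against 10.4% higher and 9.54% lower over 13444 genes, and the median was 0.018. This fit was singled out after its result was seen, and leaving out any other PC3 library called none of the 35 genes.

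RPS27L had 972, 1550.3 and 1044 normalized reads in the A, B and C libraries of CANA, against 633, 677 and 723 in control replicates A, B and C. Its log2 difference was 0.78 ± 0.17 (limma, adjusted p = 0.248) and 0.57 ± 0.070 without CANA replicate B (adjusted p = 1.98e-05). CCNG1 had 2708, 3712 and 2937 normalized reads in CANA cells, against 2066, 1990.4 and 2294 in control cells, a log2 difference of 0.55 ± 0.13 (limma, adjusted p = 0.248), or 0.42 ± 0.061 without CANA replicate B (adjusted p = 0.000151). PHLDA3 had 2790.1, 3632 and 2635 normalized reads in CANA cells, against 2072, 2113 and 2198 in control cells, a log2 difference of 0.49 ± 0.13 (limma, adjusted p = 0.248), or 0.35 ± 0.052 without CANA replicate B (adjusted p = 0.000175). In these 3 genes the CANA libraries all lay above the control libraries, and CANA replicate B was the highest of the 6. AEN had 715, 651 and 677 normalized reads in CANA cells, against 837, 917 and 802 in control cells, a log2 difference of -0.32 ± 0.091 (limma, adjusted p = 0.248), or -0.29 ± 0.069 without CANA replicate B (adjusted p = 0.00766). FBXO22 was higher without CANA replicate B (0.28 ± 0.074, adjusted p = 0.0121) and PPM1D lower (-0.24 ± 0.077, adjusted p = 0.0334).

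CDKN1A and MDM2 did not pass the test in PC3, with or without CANA replicate B. CDKN1A had 791, 829 and 825 normalized reads in CANA cells, against 920.1, 843 and 805 in control cells, a log2 difference of -0.069 with a 95% interval of -0.27 to 0.13. MDM2 had 1074, 936 and 1044 normalized reads in CANA cells, against 1100.2, 1025 and 1076 in control cells (-0.069, -0.28 to 0.14). GADD45A had 1369, 2039 and 1311 normalized reads in CANA cells, against 1259.8, 1377 and 1319.6 in control cells, so that only CANA replicate B was above every control library. CANA replicate B moved with transcript length among the 35 genes too. Over 11 genes with transcripts under 2500 bases its median log2 difference from control was 0.58, and over 13 genes of 4000 bases or more it was -0.19, while the medians in CANA replicates A and C stayed between -0.051 and 0.046. With a length curve taken from each library, none of the 35 genes passed, as in the main fit, and 38 of all genes were higher and 4 lower. RPS27L entered the curve and these length groups with its canonical length of 6110 bases, which is much longer than the usual message. Whether CANA acted differently on these genes in PC3 and 22RV1 was not tested, because the 2 lines were normalized separately and on different scales.

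**Figure D5:**
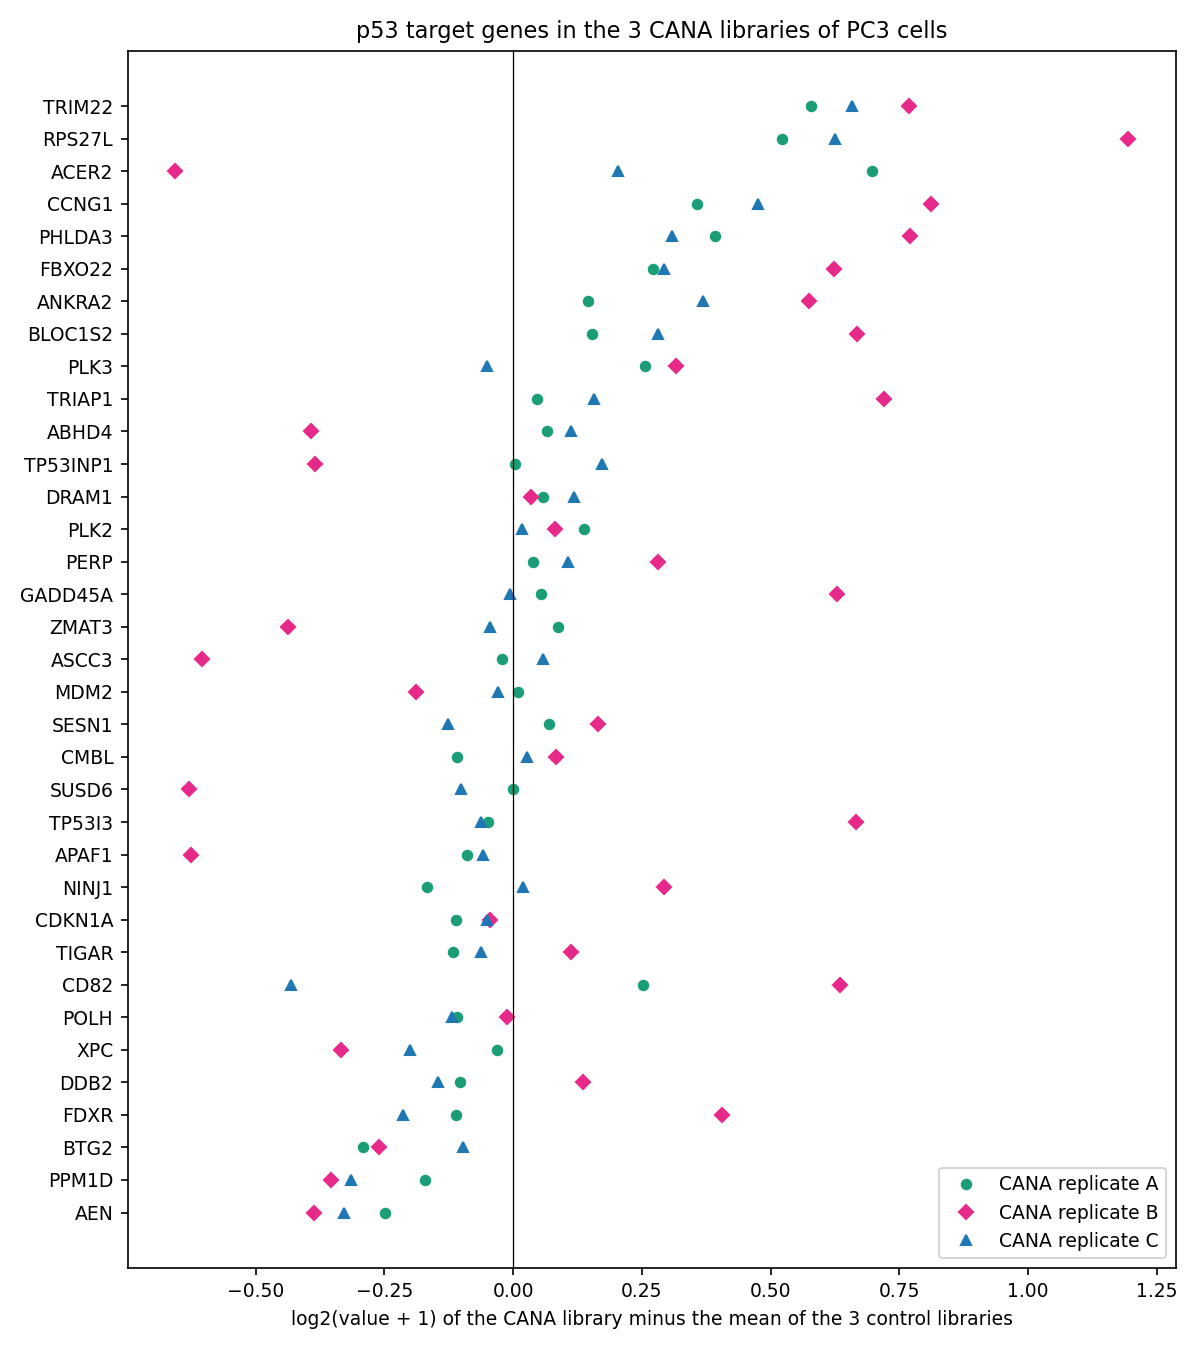
log2(value + 1) of each CANA library of PC3 cells minus the mean of the 3 control libraries, for 35 genes ordered by the mean of replicates A and C. Replicate B, shown as diamonds, lies away from A and C for many genes, with 1.19 for RPS27L against 0.52 in A and 0.63 in C.

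Related genes gave the setting of these changes in 22RV1. Their lists share a few genes and were also written with earlier results of these data known. The counts after radiation stand beside the 28.4% of all genes that rose and the 29.4% that fell. Of 14 genes of the p53 circuit, its kinases, ligases and cofactors, 2 rose and 3 fell after radiation, with a median log2 difference of 0.012. CHEK1 fell (-0.35 ± 0.034, limma, adjusted p = 2.15e-09), MDM4, the inhibitory partner of MDM2, rose (0.33 ± 0.033, adjusted p = 3.56e-09) and HIPK2, a kinase that phosphorylates p53, fell (-0.20 ± 0.028, adjusted p = 1.2e-06). Among 15 tested p53 targets of death and secretion, 8 rose and 3 fell after radiation, led by BBC3, which encodes the death protein PUMA (1.35, limma, adjusted p = 3.09e-21), the decoy receptor TNFRSF10D (0.83, adjusted p = 9.05e-17) and, downwards, IGFBP3 (-1.24, adjusted p = 1.31e-17).

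Of the 35 cell cycle genes listed as repressed through p21 and DREAM, 28 fell in RT cells, none rose and 7 did not pass the test. Their median was -0.31, and whether p21 or DREAM lowered them here was not tested. The ribonucleotide reductase subunit RRM2 fell by 1.03, the helicase subunit MCM4 by 0.71 and BRCA1 by 0.60 (limma, adjusted p = 2.55e-20 for RRM2, 9.37e-17 for MCM4 and 2.21e-15 for BRCA1). Of 21 repair genes that are not p53 targets, 1 rose and 9 fell, among them the mismatch repair gene MSH6 (-0.27). Relatives of the 36 genes, such as CDK inhibitors, sestrins and polo-like kinases, were split, with 8 higher and 5 lower of 15, including CCNG2 (0.87) and SESN3 (0.84) upwards and CDKN2C (-0.69) downwards. Of 24 genes listed under ATF4 and the integrated stress response, 9 rose and 6 fell, shares not far from those of all genes. DDIT4 (0.77), SESN2 (0.63) and TRIB3 (0.30) had the smallest p. SESN2 is also on the list of relatives, and which factor raised these genes was not tested.

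With CANA added to radiation, where 1.4% of all genes rose and 1.17% fell, 9 of the 35 cell cycle genes were lower than in RT cells and none was higher, and RRM2 (-0.25), MCM4 (-0.23) and MCM2 (-0.19) had the smallest p (limma, adjusted p = 2.58e-05 for RRM2, 0.000197 for MCM4 and 0.000919 for MCM2). In the same comparison 8 of 24 ATF4 and stress response genes rose, with a median of 0.13, led by DDIT4 (0.32), NUPR1 (0.28) and the asparagine synthetase ASNS (0.26). Of the death and secreted targets 2 rose, the cytokine GDF15 (0.38, limma, adjusted p = 1.48e-06) and BBC3 (0.16, adjusted p = 0.00700), and THBS1, next by p, differed by -0.13 without passing. None of the 14 circuit genes passed, and EP300 and HIPK2 had the smallest p. Of the repair genes 3 fell, among them MSH6 (-0.12) and PRKDC (-0.11), and of the relatives 1 rose, GADD45G (0.22), while SESN3 (-0.16) and PLK4 (-0.12) did not pass. With CANA alone none of the genes of these 6 lists passed in 22RV1, nor in PC3 with all libraries (limma). Without CANA replicate B of PC3, 14 of the 35 cell cycle genes were lower and 1 higher, and 6 of 24 ATF4 and stress response genes were higher and none lower, where 10.4% of all genes were higher and 9.54% lower.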

How the data were processed

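RNA was sequenced from PC3 and 22RV1 cells, 3 libraries a group, and reads were trimmed (Trimmomatic, cutadapt), aligned to hg38 with HISAT2 and counted over exons on the reverse strand by the authors, whose tool versions are not given in the sources used here. The PC3 signal values deposited are read counts divided by DESeq2 size factors (15195 genes), from which whole reads were recovered for 99.9989% of 91170 values within a tolerance of 0.01. The 22RV1 values deposited are log2 levels from DESeq2's rlog (21268 genes), without counts, so their depth is unknown. The authors' columns of fold changes, p-values and ranks were not used, nor were 51 columns in 7 sheets that name no sample.

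PC3 values were tested as log2(value + 1) where a gene's mean reached 10, and 22RV1 rlog values in one fit of the 12 libraries where it reached 3, both with limma 3.58.1 (trend, R 4.3.3) and Benjamini-Hochberg adjustment over all genes at 0.05. A fold change on the log2(value + 1) scale understates that of low genes, as rlog does. edgeR 4.0.16 and DESeq2 1.42.0 on recovered reads, other filters, no trend, a replicate block, fits of only the groups compared, a length curve and leaving out each library were alternatives. The fit without CANA replicate B of PC3 is among them, and it was chosen for description by gene after its result was seen. Genes named with all values were the 8 largest for RT against control, the 6 smallest p for CANA + RT against RT and the 4 smallest for the interaction and for CANA against control in each line, and further members were added to describe each role. Of each related list the 3 genes with the smallest p were named, apart from a few genes that are not reported here. The members and lists were chosen with earlier results of these data known. The p53 element search used GRCh38 and GENCODE 44.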

Additional observations from a re-analysis of the deposited data

Results flagged for a closer look

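In 22RV1 cells, 4 genes named in the report had a CANA difference after radiation that departed from the one without radiation, by the interaction term of the limma fit over 14563 genes. CDKN1A had an interaction of 0.26 on the log2 scale (adjusted p = 0.0293). GDF15, a p53 and stress-induced cytokine, had 0.32 (adjusted p = 0.0215). MCM4 had -0.22 (adjusted p = 0.0293) and RRM2 -0.23 (adjusted p = 0.0233), both genes of DNA replication. All 4 calls depend on the setting. No gene at all passed the interaction without the filter on low values, without the trend, without CANA + RT replicate C or without RT replicate B.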

How the results depend on the processing

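The depth of the 22RV1 libraries is unknown and rlog draws differences towards 0, most for low genes, so their differences are understated. No result changed its direction past the threshold. For CANA + RT against RT, the 3 of the 36 genes called higher became 1 without the filter (51 of all genes higher and 54 lower, 4 ATF4 genes higher, 1 repair gene lower), 1 without the trend (64 and 75, 5 ATF4 genes, 5 cell cycle genes and 1 repair gene) and 8 in a fit of only the groups compared (668 and 520, 19 ATF4 genes, 1 circuit gene and 2 relatives lower). With a mean rlog of at least 6, 1 circuit gene was lower, and so it was under the replicate block, with 1 relative lower. For the interaction, none of the 36 genes and 0 of all genes passed without the filter or without the trend, and 11 genes were lower with a mean rlog of at least 6. In CANA + RT against control, 1 gene was lower without the trend. In PC3, DESeq2 called 3 of the 35 genes higher (263 of all genes higher and 84 lower), and the length curve called 38 genes higher and 4 lower. The cause of these shifts was not tested. Element matches were found near 4 of the 36 genes with at most 1 mismatch, and near 4 within 1000 bases.

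Leaving out 1 library gave, in PC3, 0 to 4 of the 35 genes higher and 0 to 2 lower, with 0 to 1404 of all genes higher and 0 to 1282 lower. It gave for RT against control 0 to 1 of the 36 genes lower, 1 to 2 circuit genes, 0 to 1 cell cycle genes and 1 to 2 repair genes higher. For CANA + RT against RT it gave 1 to 3 of the 36 genes higher, 42 to 139 of all genes higher and 53 to 97 lower, 1 to 2 death and secreted targets and 5 to 9 ATF4 genes higher, and 0 to 1 circuit genes, 6 to 8 cell cycle genes, 1 to 2 repair genes and 0 to 1 relatives lower. For the interaction it gave 0 to 1 of the 36 genes higher, with 0 to 70 of all genes higher and 0 to 46 lower.

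The labels do not say whether replicate letters pair the libraries, and the main fits did not pair them. Same-letter correlations ran from -0.142 to 0.430 in 22RV1 and 0.045 to 0.123 in PC3. Different-letter correlations ran from -0.369 to 0.433 in 22RV1 and -0.165 to 0.065 in PC3. Between CANA + RT and RT libraries the same-letter values were 0.103, 0.092 and 0.170, and the different-letter values ran from -0.132 to 0.037. With the replicate block, 3 of the 36 genes were higher in CANA + RT against RT, 33 in RT against control and 1 in the interaction, as without it.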
